A study of Mus musculus with 6 samples.

Results

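Autotaxin is the secreted enzyme that makes lysophosphatidic acid (LPA), and this account follows its gene, Enpp2, together with LPA receptors and the membrane phosphatases that act on LPA, through 6 arrays of sorted mouse mammary cells. The set holds 10 genes, Enpp2, Lpar1, Lpar2, Lpar3, Lpar4, Lpar6, Plpp1, Plpp2, Plpp3 and Plppr3, of 20887 genes with a symbol on the array. They were read by 13 of 55681 non-control probes, found through the RefSeq transcript each probe is annotated with. The set was chosen from genes whose measured log2 difference between the sorted fractions was already known, together with relatives of known function, so values of its members are given as a description, without p-values.

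Lgr5-positive cells were Lin-, CD24+, CD29hi and GFP+, and Lgr5-negative cells were Lin-, CD24+, CD29hi and GFP-, with 3 arrays per fraction, numbered 1 to 3 in both. The source was mammary tissue of virgin mice, strain C57/B6, that carried the lgr5-egfp-ires-creert2 allele, so GFP was the readout of the Lgr5 locus and both fractions carried the allele. Age, the number of animals behind a sample and any pooling are not given in the sources used here, so the spread between arrays may be partly technical. Sample RNA was labelled with Cy5, and on every array the Cy3 channel held one universal reference RNA, a mix of 11 mouse cell lines, so each value is a log2 ratio of sample to reference.

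Autotaxin cleaves choline from lysophosphatidylcholine outside the cell. The LPA it makes acts on G protein-coupled receptors, of which Lpar1, Lpar2 and Lpar3 form one family and Lpar4 and Lpar6 resemble purine receptors. The lipid phosphate phosphatases Plpp1, Plpp2 and Plpp3 remove the phosphate from LPA and related lipids, whereas Plppr3 belongs to a related family of membrane proteins known mainly from neurons. Autotaxin is known from adipose tissue and from the high endothelial venules of lymph nodes, the vessels through which lymphocytes leave the blood.

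Median Cy5 intensity over the probes was 137 to 169 on Lgr5-positive arrays and 200 to 278 on Lgr5-negative arrays. Between 50.9% and 74.4% of probes passed the scanner's test for a Cy5 signal well above background, and no spot was saturated in Cy5. Lgr5 had a mean log2 ratio of 4.87 in Lgr5-positive cells and 3.4 in Lgr5-negative cells, in the direction of the labels. Its difference was 1.47 (adjusted p = 0.245 with the fraction alone and 0.0021 with the replicate number as a block, both in limma). Lgr5-negative cells still read 10.6 times the reference. All 9 basal markers examined were tested, and their mean log2 ratio lay between 2.61 and 2.99 on Lgr5-positive arrays and between 2.33 and 2.60 on Lgr5-negative arrays. All 9 differences were positive (median 0.34). At an adjusted p of 0.05, 0 passed limma's fit with the fraction alone, and 1, Krt17, passed with the replicate number as a block (0.62, adjusted p = 0.045). Krt14 was at 0.48 and was -0.01 with median centring and with the Cy5 channel alone. Among the 9 were Cd24a at 0.34 and Itgb1 at 0.16, which encode CD24 and CD29 of the gate shared by both fractions. Cd24a was named after its value was seen. Trp63 and Itgb1, named after their values were seen, stood near or below the reference RNA, at 0.06 and -0.24 in Lgr5-positive cells and -0.003 and -0.40 in Lgr5-negative cells. In RNA from sorted pools, fewer cells of a type and less RNA per cell cannot be told apart.

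Upstream sequence was held for 8 of the 10 genes, in 10 entries of the RefSeq promoter table (build GRCm38.p6), and is shown for the genes with the highest and the lowest difference among those 8. Each run is the 250 bases before the annotated start, read 5′ to 3′ on the gene's strand, with the TATA box (TATAAA), GC box (GGGCGG) and E-box (CANNTG) in capitals wherever they occur on either strand.
Plppr3, chr10:79874635-79874884, minus strand: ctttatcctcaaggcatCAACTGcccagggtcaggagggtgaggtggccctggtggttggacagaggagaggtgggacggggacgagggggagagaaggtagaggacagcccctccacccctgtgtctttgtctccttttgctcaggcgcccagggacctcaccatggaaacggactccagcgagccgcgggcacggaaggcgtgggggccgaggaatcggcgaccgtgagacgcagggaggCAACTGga
Lpar4, chrX:106920375-106920624, plus strand: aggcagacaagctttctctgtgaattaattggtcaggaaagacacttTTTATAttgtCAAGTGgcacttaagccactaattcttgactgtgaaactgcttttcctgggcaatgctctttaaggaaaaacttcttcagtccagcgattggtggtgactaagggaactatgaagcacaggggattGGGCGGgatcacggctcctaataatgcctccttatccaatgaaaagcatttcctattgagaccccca
The Plppr3 window is rich in G and C (64.4%) and holds 2 E-boxes, while the Lpar4 window has 43.6% G and C and 1 copy of each motif. Lpar4 was the only member with a TATA box in such a window, a motif found in 12.4% of the 32851 windows of this length, against 32.7% for the GC box and 66.2% for the E-box. The motifs did not overlap each other in the windows shown. A match of letters is a description and not a binding site.

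Enpp2 was low in Lgr5-positive cells and high in Lgr5-negative cells. Its log2 ratio was -1.43, -0.81 and -1.82 on Lgr5-positive arrays 1 to 3, and 2.06, 3.30 and 4.09 on Lgr5-negative arrays 1 to 3. Every Lgr5-positive array lay below the reference RNA and every Lgr5-negative array above it, and the groups were separated by a gap wider than the range within either. The means were -1.35 ± 0.51 in Lgr5-positive cells and 3.15 ± 1.02 in Lgr5-negative cells (SD, n = 3 each), or 0.392 and 8.85 times the reference. The difference was -4.50 (SE 0.66), a 22.6-fold lower level in Lgr5-positive cells. By pair it was -3.49, -4.10 and -5.90 for replicate numbers 1 to 3, so Enpp2 was lower in Lgr5-positive cells in each pair and most so in the third. Among 15675 genes tested, only 3 had a more negative difference.

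The same contrast was visible before any normalization. Median Cy5 spot signal for Enpp2 was 404, 1081.5 and 457 on the Lgr5-positive arrays, and 7835.5, 38436.6 and 54536.1 on the Lgr5-negative arrays. The reference channel of that spot hardly moved, with Cy3 signals of 3550 to 3797 on the Lgr5-positive arrays and 3610 to 3833.5 on the Lgr5-negative arrays. Cy5 local background was 64 to 68 and 69 to 81.5, so the transcript was well above background on all 6 arrays and Enpp2 was also measured in Lgr5-positive cells. The gene was read by 1 probe, printed once, so no second probe checks it.

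**Figure D1:**
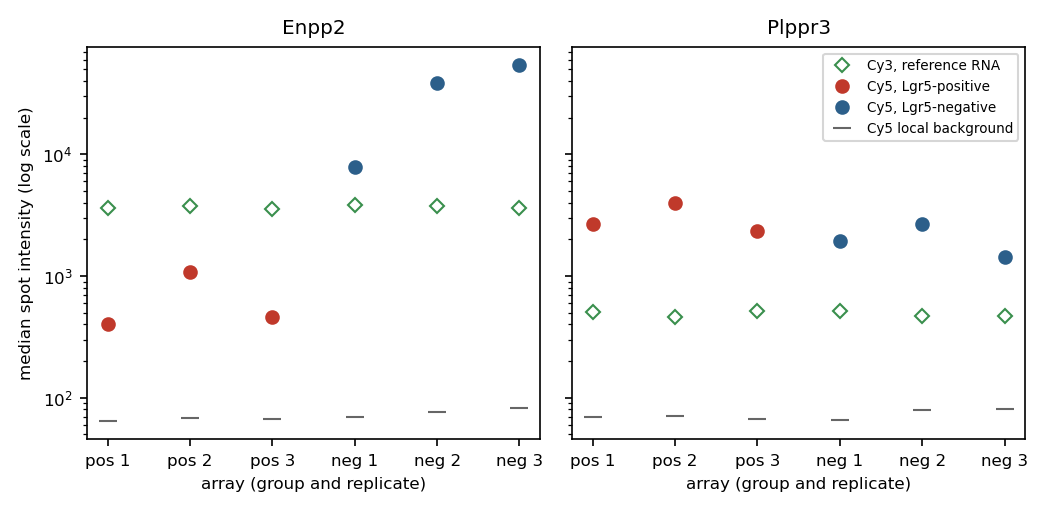
Median spot intensity (log axis) of the Enpp2 probe (left) and the brighter Plppr3 probe (right) on each Lgr5-positive and Lgr5-negative array, in the Cy5 sample channel and the Cy3 reference channel, with the Cy5 local background. Enpp2 Cy5 signal is at most 1081.5 on Lgr5-positive arrays and at least 7835.5 on Lgr5-negative arrays, while Cy3 signal stays between 3550 and 3833.5.

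The LPA receptors differed far less than Enpp2 between the fractions. Lpar6, a G protein-coupled receptor for LPA, was well above background on all 6 arrays. Its log2 ratio was 0.75, 0.51 and 0.26 on Lgr5-positive arrays and 0.98, 0.69 and 1.05 on Lgr5-negative arrays. Only Lgr5-positive array 1 reached into the Lgr5-negative range, and the difference of -0.40 (SE 0.18) was negative in each pair, at -0.23, -0.18 and -0.79. Lpar4, whose receptor couples to adenylyl cyclase, was well above background on 2 Lgr5-positive and 3 Lgr5-negative arrays. Its log2 ratio was -0.76, -0.59 and -0.92 on Lgr5-positive arrays and -0.40, -0.17 and 0.05 on Lgr5-negative arrays. The groups did not overlap, and the difference was -0.59 (SE 0.16), with -0.36, -0.42 and -0.97 by pair.

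For both purine receptor-like genes the third pair thus showed the widest gap, as it did for Enpp2 and, upward, for Plppr3 and Lgr5. The size of the Lpar4 difference depended on the ratio used, from -0.40 in the Cy5 channel alone to -1.02 with the scanner's own log ratio. For Lpar6 it ranged from -0.18 with scale normalization to -0.83 with median centring, a setting that moved the median of all genes to -0.30.

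Lpar1, the receptor first described and widely expressed in mesenchymal and neural cells, was dim and nearly equal in the fractions. Its log2 ratio was 0.15, 0.07 and 0.07 on Lgr5-positive arrays and 0.10, -0.02 and -0.04 on Lgr5-negative arrays, with overlap between the groups and a difference of 0.09 (SE 0.05). Its sign turned to -0.12 with the scanner's log ratio and with the deposited table. Its Cy5 signal, 131 to 151 on Lgr5-positive arrays and 163 to 225 on Lgr5-negative arrays, lay close to a local background of 60 to 67 and 65 to 77.

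Lpar2 and Lpar3 were at the edge of detection and did not pass the filter of a Cy5 signal well above background on 3 arrays. Lpar2 was read by 2 probes. The brighter was well above background on 0 Lgr5-positive arrays and 1 Lgr5-negative array, the other on 1 array of each fraction. Their differences were 0.04 (SE 0.33) and 0.08 (SE 0.26), smaller than their errors. Lpar3 was well above background on 0 Lgr5-positive arrays and 1 Lgr5-negative array, with log2 ratios of 0.01, 0.16 and -0.49 on Lgr5-positive arrays and 0.21, 0.85 and -0.21 on Lgr5-negative arrays, which overlap. Its difference was -0.39 (SE 0.37), with -0.20, -0.69 and -0.28 by pair and an SE of 0.15 over the pairs, so Lpar3 read lower in each pair at a signal near background.

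**Figure D2:**
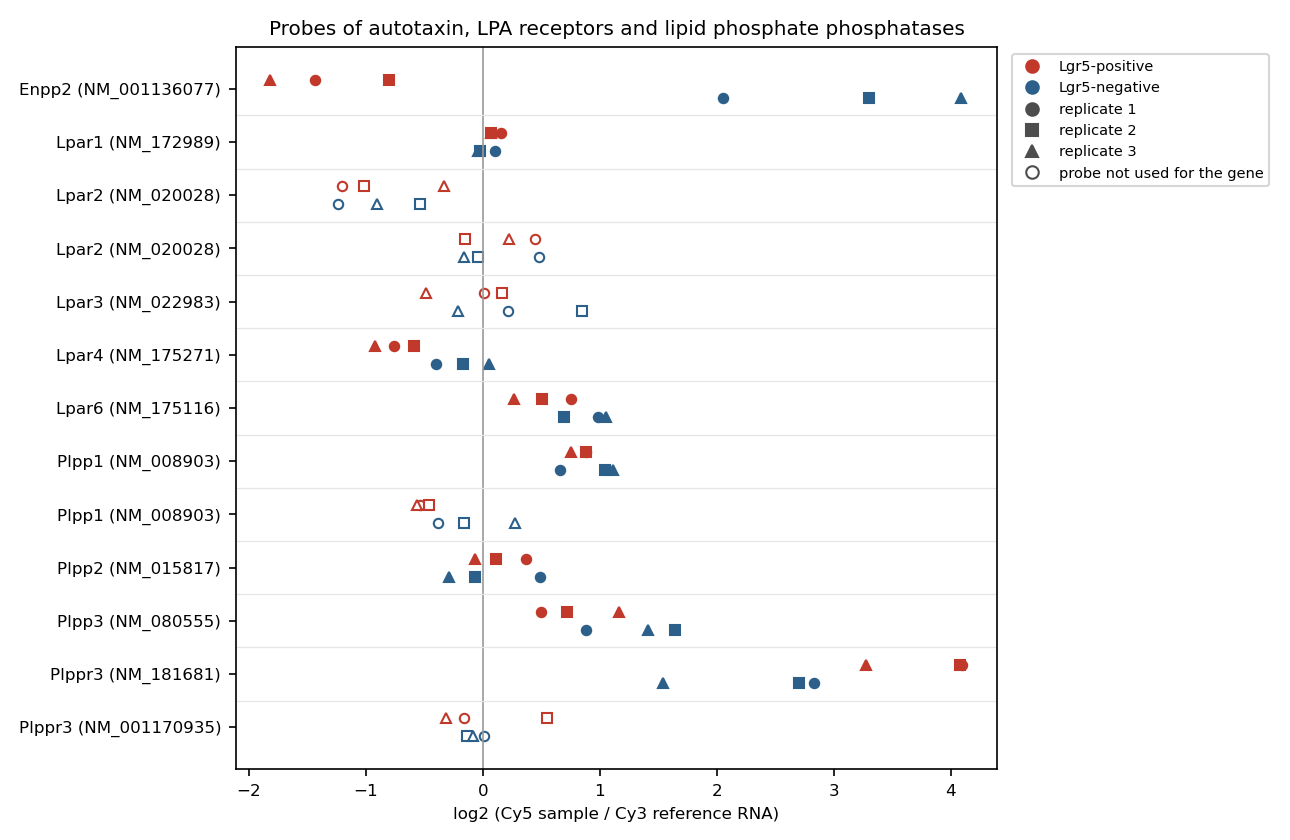
Log2 ratio of sample to reference RNA for the 13 probes, with Lgr5-positive arrays (red) above Lgr5-negative arrays (blue) in each row and 1 symbol shape per replicate number; open symbols are probes that did not stand for their gene in the fit across all genes. Enpp2 and the brighter Plppr3 probe separate the groups most, at differences of -4.50 and 1.46, and most other rows overlap.

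Of the 3 phosphatases, Plpp3, which degrades LPA at the cell surface and is abundant in endothelium, was lower in Lgr5-positive cells in each pair. Its log2 ratio was 0.50, 0.72 and 1.17 on Lgr5-positive arrays and 0.88, 1.65 and 1.41 on Lgr5-negative arrays. The ranges overlapped, because Lgr5-positive array 3 lay above Lgr5-negative array 1. The difference was -0.52 (SE 0.30), with -0.38, -0.93 and -0.25 by pair, and it was -1.01 with median centring and 0.03 with scale normalization.

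Plpp1 was read by 2 probes on the same transcript that were both well above background on all 6 arrays and did not give the same answer. The brighter had log2 ratios of 0.88, 0.89 and 0.75 on Lgr5-positive arrays and 0.66, 1.05 and 1.11 on Lgr5-negative arrays, with a difference of -0.10 (SE 0.15) that had mixed signs over the pairs and was 0.26 with scale normalization. The dimmer had -0.54, -0.46 and -0.56 on Lgr5-positive arrays and -0.39, -0.16 and 0.27 on Lgr5-negative arrays, without overlap and with a difference of -0.43 (SE 0.20). Plpp2, a phosphatase of epithelial cells, was well above background on all 6 arrays and averaged 0.14 ± 0.22 in Lgr5-positive cells and 0.05 ± 0.40 in Lgr5-negative cells (SD, n = 3 each). Its difference of 0.09 (SE 0.26) had mixed signs over the pairs and was -0.38 with median centring.

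Plppr3 ran the other way and was higher in Lgr5-positive cells. The brighter of its 2 probes, annotated with NM_181681, had log2 ratios of 4.10, 4.08 and 3.28 on Lgr5-positive arrays and 2.83, 2.70 and 1.54 on Lgr5-negative arrays. The groups did not overlap, and the nearest arrays were Lgr5-positive array 3 and Lgr5-negative array 1. The means were 3.82 ± 0.47 in Lgr5-positive cells and 2.36 ± 0.71 in Lgr5-negative cells (SD, n = 3 each), or 14.1 and 5.13 times the reference, so both fractions carried the transcript well above the reference mix. The difference was 1.46 (SE 0.49), or 2.75-fold. By pair it was 1.27, 1.37 and 1.74, a narrower spread than that between arrays of one group, with an SE of 0.14 over the pairs. Only 7 of 15675 genes had a more positive difference, and the value ranged from 0.90 with median centring to 2.96 with scale normalization.

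The second Plppr3 probe, annotated with NM_001170935, was well above background on 1 Lgr5-positive array and 0 Lgr5-negative arrays. It gave a difference of 0.09 (SE 0.27) with overlap and mixed signs over the pairs. The higher level in Lgr5-positive cells therefore rests on the NM_181681 probe alone. Raw Cy5 signal on that probe was 2675.5, 3984 and 2363 on Lgr5-positive arrays and 1958, 2661 and 1433 on Lgr5-negative arrays. These raw ranges overlap, and median Cy5 intensity over all probes differed between the fractions as given above.

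Of the 8 members that passed the filter, 1 (Enpp2, lower) was past an adjusted p of 0.05 in limma's fit with the fraction as the only term, where 0.612% of all genes were (0.587% lower and 0.0255% higher). With the replicate number as a block 2 were, Enpp2 lower and Plppr3 higher, where 7.72% of all genes were (5.61% lower and 2.11% higher). Enpp2, Lpar4 and Plppr3 had no overlap between the fractions, as did 12.2% of all genes, and 6 members had one direction in all 3 pairs, as did 44.3% of all genes. These counts describe genes picked with this contrast in view and support nothing further. With the fraction alone Enpp2 was not past the threshold under median centring or scale normalization, or when Lgr5-positive array 1 or 3 or Lgr5-negative array 2 or 3 was left out, and scale normalization also took both members below it in the blocked fit.

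The genes whose profiles lay closest to Enpp2 were Bst1, Serpina3f, Wdr64, Gcnt1 and Tgfbi, ranked by the root mean square difference of centred log2 ratios over the 6 arrays. Bst1, a surface enzyme that turns over NAD, was nearest at 0.17, and Tgfbi, a matrix protein, was at 0.32. Their differences between the fractions lay between -4.60 and -4.001. Such values follow from the choice by likeness on these same arrays, as do those of the Plppr3 neighbours below. Bst1 and Gcnt1, which branches O-glycans, were well above background on only 2 Lgr5-positive arrays. Second probes gave smaller differences, at -2.06 for Bst1, -3.14 for Serpina3f, -1.16 for Gcnt1 and -0.08 for Wdr64. Those of Bst1, Gcnt1 and Wdr64 were well above background on 0 Lgr5-positive arrays, and those of Gcnt1 and Wdr64 did not pass the filter. On the Lgr5-positive arrays these second probes were thus read near the floor. On the Lgr5-negative arrays the second Wdr64 probe read 0.15, 0.19 and 0.28, against 4.90, 5.84 and 6.13 on the first. Why the second probes gave smaller differences was not tested. The genes closest to Plppr3 were Mfap2, Mdk, Nme5, Gpr153 and Ly6h, at 0.13 to 0.21, with differences of 1.18 to 1.35. Mfap2 is a microfibril protein and Mdk is the growth factor midkine. Second probes gave 0.16 for Mfap2, 1.04 for Mdk, 0.52 for Nme5 and 0.55 for Ly6h.

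**Figure D3:**
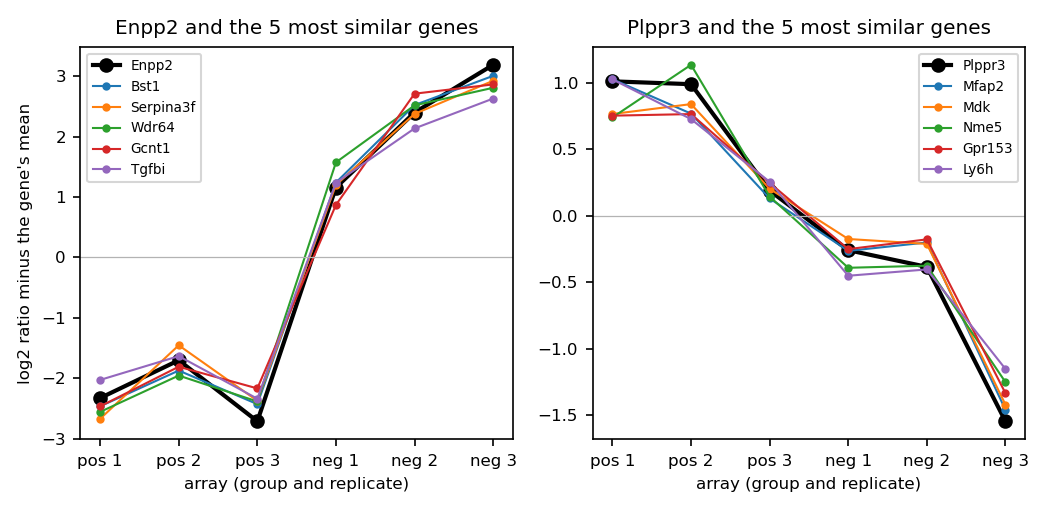
Log2 ratio minus each gene's mean on the 6 arrays for Enpp2 (left) and Plppr3 (right), each with the 5 genes of smallest root mean square difference; lines join the values of 1 gene and imply no order. The Enpp2 group is below 0 on all Lgr5-positive arrays and above 0 on all Lgr5-negative arrays, with Lgr5-negative array 1 the lowest of its fraction, and the Plppr3 group has its lowest values on Lgr5-negative array 3. The genes were chosen by likeness on these same arrays, so the shared pattern follows from the choice.

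Whether genes around these members also differed was asked of 73 further genes in 4 lists, of which 59 were tested in the fit across all genes. With the fraction alone 0 of 59 passed in limma, with 9 at an unadjusted p under 0.05, against 1285 of all 15675 genes. With the replicate block 9 of 59 (15.3%) passed, 8 lower and 1 higher in Lgr5-positive cells, against 7.72% of all genes. These lists and the marker lists were chosen with earlier results of these data known, so such shares and p-values are a description. The median difference over the 59 was -0.08, against 0.01 over all genes. The blocked count was 2 without pair 2, which kept S1pr1 and Spns2, and 8 and 6 without pairs 1 and 3. It was 5 with the scanner's log ratio, of which 4 were shared, and 0 with scale normalization. Median centring gave 29, all lower, where 5924 of all 15675 genes passed, 5798 of them lower.

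The clearest of these were genes of sphingosine 1-phosphate (S1P), a lipid related to LPA. S1pr1, the S1P receptor of lymphocytes and blood vessels, had log2 ratios of -0.42, 1.30 and 0.31 on Lgr5-positive arrays and 2.30, 3.88 and 3.92 on Lgr5-negative arrays, without overlap. Its difference was -2.97, with an SE of 0.58 and an adjusted p of 0.103 with the fraction alone, and an SE of 0.21 and an adjusted p of 0.0011 with the block, both in limma. Spns2, which exports S1P from endothelium, had 1.75, 2.66 and 2.04 on Lgr5-positive arrays and 3.72, 4.31 and 4.41 on Lgr5-negative arrays, again without overlap. Its difference was -1.997, with an adjusted p of 0.051 with the fraction alone and 0.0016 with the block in limma. Both were thus lower in Lgr5-positive cells in 3 of 3 pairs and, with all arrays and the brightest probe, passed with the block and not with the fraction alone. Without the block, both passed when Lgr5-negative array 1 was left out, and Spns2 also when Lgr5-positive array 2 was left out or a gene's probes were averaged. With scale normalization Spns2 was at -0.63. Among the other receptors tested, S1pr3 was at -0.34 (blocked adjusted p = 0.32 in limma), and S1pr2, Lpar5, P2ry10 and Gpr132 did not pass either, so 1 of 6 fell with the block (median -0.25).

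Among relatives of the enzymes 2 of 9 fell with the block (median -0.38). Enpp4, a nucleotide-cleaving ectoenzyme of the autotaxin family, was at -1.27 (blocked adjusted p = 0.010 in limma), and Plpp6, a phosphatase of the endoplasmic reticulum, at -0.79 (blocked adjusted p = 0.042 in limma). Plpp5 was at -0.38 and did not pass. Of the other enzymes and transporters of LPA and S1P 3 of 22 fell with the block (median -0.09). Besides Spns2 these were Pla1a, a phospholipase that acts on phosphatidylserine, at -0.75 (blocked adjusted p = 0.022 in limma), and Agpat5, which acylates LPA to phosphatidic acid, at -1.04 (blocked adjusted p = 0.035 in limma). Pla1a and Agpat5 did not pass with the scanner's log ratio (adjusted p = 0.063 and 0.053).

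Genes downstream of LPA receptors were not shifted as a list, with 12 positive and 10 negative differences of 22 and a median of 0.0004. Ccn2, a matricellular protein and a common readout of YAP activity, rose with the block (0.82, adjusted p = 0.045 in limma), whereas Ccn1, a related gene read out in the same way, fell (-0.66, adjusted p = 0.020 in limma). Mrtfb, a coactivator of SRF, fell on its brightest probe (-0.91, adjusted p = 0.035 in limma). Other Mrtfb probes, not well above background on every array, gave -0.002 and -0.39. With the scanner's log ratio none of these 3 passed the blocked fit, where adjusted p was 0.093 for Ccn2, 0.074 for Ccn1 and 0.061 for Mrtfb. Gna12 and Gna13, G protein subunits, did not pass. Agpat5, Ccn1, Plpp6 and the genes named without a value were chosen after their values were seen.

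**Figure D4:**
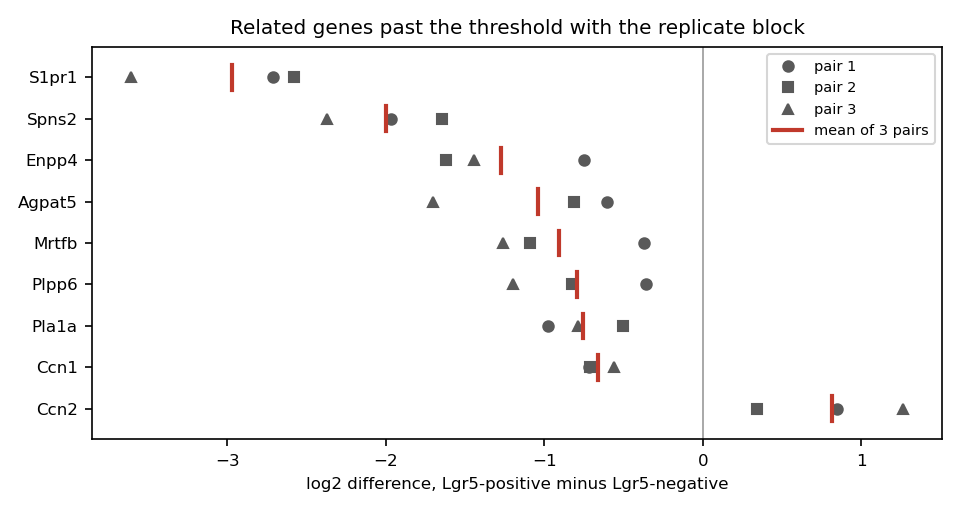
Log2 difference (Lgr5-positive minus Lgr5-negative) in each of the 3 pairs (symbols) and their mean (bar) for the 9 related genes past an adjusted p of 0.05 in the blocked limma fit. S1pr1 and Spns2 lie at -2.97 and -1.997, and Ccn2 is the only one above 0.

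Several lists of markers of other cell types were also lower in Lgr5-positive cells. Markers of high endothelial venules had a mean log2 ratio of 0.89 to 1.58 on Lgr5-positive arrays and 2.86 to 3.91 on Lgr5-negative arrays. All 10 were tested and all 10 had negative differences (median -1.92). With the fraction alone 4 fell, and with the block 8 did. Glycam1, named after its values were seen, had the highest ratios of the list and so raised the list means. It lay at 6.43 to 6.71 on Lgr5-positive arrays and 7.18 to 7.88 on Lgr5-negative arrays. Its difference was -0.91 (blocked adjusted p = 0.037 in limma). Fut7, which builds selectin ligands, was at -4.75 (adjusted p = 0.0069 in limma; -2.79 on its second probe) and Gcnt1 at -4.30 (adjusted p = 0.033 in limma; -1.16 on its second probe). Both second probes were well above background on 0 Lgr5-positive arrays. Pan-endothelial markers lay at 1.12 to 2.13 on Lgr5-positive arrays and 2.92 to 3.65 on Lgr5-negative arrays. Of 12 differences 11 were negative (median -2.14), and 3 fell with the fraction alone and 9 with the block. Of all genes, 0.587% and 5.61% fell in these fits. The exception was Kdr, named after its value was seen, at 0.18 and well above background on every array. Egfl7, an endothelial matrix protein, was at -3.30 (adjusted p = 0.029 in limma), and the junction gene Cdh5 at -2.84 (adjusted p = 0.243 in limma). Pair differences in the mean log2 ratio of the pan-endothelial markers were -1.71, -1.26 and -2.53, and those of the venule markers -1.96, -2.12 and -2.81, beside -3.49, -4.10 and -5.90 for Enpp2. All 3 were thus widest in the third pair. So were the luminal, lymphatic, lymphoid stroma, pericyte and nerve lists given below, and the basal list. Lgr5 (1.40, 1.31 and 1.70) and Plppr3 were too, so the feature was not particular to Enpp2 and vessel markers. The fibroblast list was widest in the first pair, and the adipocyte and leukocyte lists had mixed signs.

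Lymphatic endothelial markers (median -1.99, 5 tested, 2 lower with the fraction alone, 3 lower and 1 higher with the block) lay at 0.31 to 0.82 on Lgr5-positive arrays and 1.56 to 2.52 on Lgr5-negative arrays. Lymphoid stroma markers (median -1.02, 9 tested, 2 lower with the fraction alone and 5 with the block) lay at 0.26 to 0.54 on Lgr5-positive arrays and 1.55 to 2.25 on Lgr5-negative arrays. Lyve1, a hyaluronan receptor, was at -4.12 (adjusted p = 0.044 in limma). Other lymphatic genes differed from it, with Flt4 at -0.17 and Pdpn at 0.61. Prox1 was on the array but not among the genes tested, and Ccl21a had no probe under its symbol. Of the lymphoid stroma markers Bst1, which is also the nearest profile to Enpp2, was at -4.51 (adjusted p = 0.018 in limma) and Cxcl13, a chemokine for B cells, at -4.17 (adjusted p = 0.0097 in limma). With the scanner's log ratio Cxcl13 was at -2.09 and no longer passed (adjusted p = 0.071 in limma). Tie1, Mmrn1, Tnfsf11 and Des, 1 each of the endothelial, lymphatic, lymphoid stroma and pericyte lists, did not reach the threshold for a signal well above background on a single Lgr5-positive array, and Reln, a lymphatic marker, did not reach it on any of the 6. Tie1, Tnfsf11, Reln, Flt4 and Pdpn were named after their values were seen.

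Smaller shifts were seen elsewhere. Pericyte markers lay at -0.17 to -0.13 on Lgr5-positive arrays and 0.36 to 0.52 on Lgr5-negative arrays (7 tested, 0 past the threshold with the fraction alone, 3 lower with the block), with the channel subunit Abcc9 at -0.99. Fibroblast markers lay at -0.77 to -0.51 on Lgr5-positive arrays and -0.51 to -0.09 on Lgr5-negative arrays (9 tested, 0 with the fraction alone, 4 lower and 1 higher with the block). Their ranges met, since Lgr5-positive array 2 lay just above Lgr5-negative array 3, and the matrix gene Dcn was at -1.37 and Pi16 at -1.26. Luminal markers lay at 0.56 to 0.95 on Lgr5-positive arrays and 1.04 to 1.49 on Lgr5-negative arrays (11 tested, 1 lower with the fraction alone and 4 with the block). Among them the keratin gene Krt7 was at -1.51 (adjusted p = 0.024 in limma) and the receptor gene Kit at -1.60 (adjusted p = 0.516 in limma). Of the 11 luminal differences 8 were negative (median -0.47). The other 3 were positive, with Gata3 at 0.68, Krt8 at 0.08 and Krt18 at 0.03, none past the threshold in either limma fit. Gata3, Krt8 and Krt18 were named after their values were seen. The ranges of the fat, leukocyte and nerve lists overlapped as well. Adipocyte markers, of interest because fat makes autotaxin, lay at 1.41 to 2.02 on Lgr5-positive arrays and 1.54 to 2.00 on Lgr5-negative arrays (median 0.02, 8 tested, 0 with the fraction alone, 1 lower with the block), with Cfd at 1.58 and Cidea at -0.96. Leukocyte markers lay at -0.52 to 0.32 on Lgr5-positive arrays and -0.67 to 0.15 on Lgr5-negative arrays (7 tested, 0 past the threshold in either limma fit), with Ptprc at 0.29. Nerve and Schwann cell markers lay at -0.20 to 0.17 on Lgr5-positive arrays and -0.05 to 0.36 on Lgr5-negative arrays (7 tested, 0 with the fraction alone, 1 lower with the block), with Snap25 at 0.25. The part of these cell types in the values of Enpp2, S1pr1, Spns2, Plpp3 and the other genes above was not tested.

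**Figure D5:**
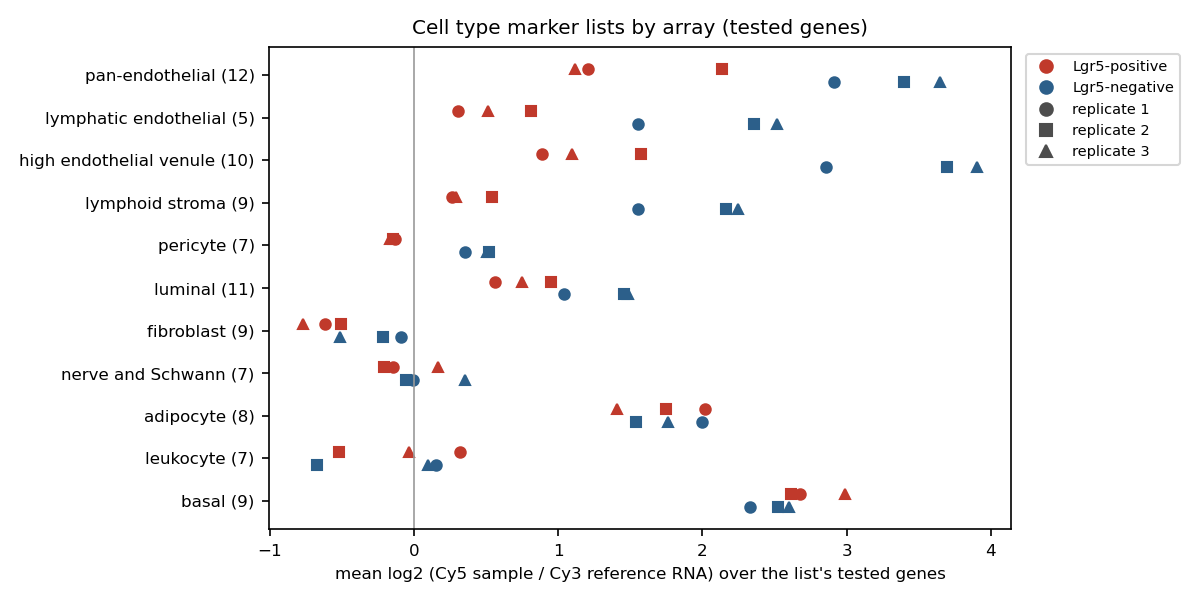
Mean log2 ratio of sample to reference RNA over the tested genes of each marker list (number in brackets) on each Lgr5-positive (red, upper) and Lgr5-negative (blue, lower) array, with 1 symbol shape per replicate number. The endothelial, venule, lymphatic, lymphoid stroma, luminal and pericyte lists are lower on every Lgr5-positive array than on any Lgr5-negative array. The basal list is higher by a narrow gap, with its lowest Lgr5-positive array at 2.614 and its highest Lgr5-negative array at 2.604. The fibroblast, adipocyte, leukocyte and nerve lists overlap.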

How the data were processed

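The authors deposited 1 scanner file per array. Its software was Agilent Feature Extraction, version 11.0.1.1 per the file headers and 11.0 in the submitters' processing notes. The deposited columns give spot and background intensity as medians in both channels, and a log10 ratio of the processed signals, Cy5 to Cy3. A deposited value table holds log2 ratios with each probe centred on its median over the 6 arrays; its scale and direction were inferred by setting it against the scanner ratios (correlation 0.920 to 0.950), and what made the rest differ is unknown.

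Medians were used because the files used here hold no mean spot signals, which the planned design had named first. They were corrected with normexp (offset 50) and normalized by loess in limma 3.58.1 (R 4.3.3). Controls and outlier-flagged spots were given no weight and left out. Probes were named through RefSeq transcripts (21717 of 23173 accessions matched, table of GRCm38.p6; the array design is annotated on mm9). A probe was kept when well above background in Cy5 on at least 3 of 6 arrays, the brightest stood for its gene, and 15675 genes were tested with lmFit and eBayes, with Benjamini-Hochberg adjustment. SEs printed for members come from the SDs of both groups, and those of other genes from limma.

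Deviations from the group mean went together for arrays of one number (r = 0.811, 0.820 and 0.675 across genes, each over the 0.1 set as the criterion), so the numbers pair the arrays, and blocked values stand beside the others. All 6 arrays shared 1 slide and 1 scan. The members, the related and marker lists and the tests were chosen with earlier results of these data known. Genes were named by rule: all members; per related list up to 4 past the threshold, filled to 2 by the lowest p; the 5 genes nearest to Enpp2 and to Plppr3; and per marker list the 2 with the largest differences, of which some are not reported here.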

Additional observations from a re-analysis of the deposited data

How the results depend on the processing

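With all arrays kept, the direction of Enpp2, Lpar3, Lpar4, Lpar6, Plppr3, the dimmer Plpp1 probe and the dimmer Lpar2 probe held in each alternative run, with Enpp2 between -5.07 and -4.50. The sign of Lpar1, the brighter Lpar2 and Plpp1 probes, Plpp2 and Plpp3 turned in at least 1. Leaving out single arrays or pairs kept Enpp2 between -5.04 and -3.79 and Plppr3 between 1.05 and 1.73. With the fraction alone 96 of all genes passed; the count was 1210 with the replicate block, 9 with median centring in place of loess (all lower), 0 with scale normalization between arrays (1429 at an unadjusted p under 0.05) and 44 when a probe had to pass the background test on each of 6 arrays. Leaving out 1 array gave 0 to 371 genes (0 without Lgr5-positive replicate 1 or 3, 371 without Lgr5-negative replicate 1), and the blocked fit without 1 pair gave 1396, 325 and 854 without pairs 1, 2 and 3. For the related genes the count of 0 became 9 with the replicate block and 1 (Spns2) with the mean of a gene's probes, 0 to 3 without 1 array (Spns2 without Lgr5-positive replicate 2; Enpp4, S1pr1 and Spns2 without Lgr5-negative replicate 1), and 2 to 8 in the blocked fit without 1 pair. Among the 8 markers past the threshold that the naming rule picked, the call was lost in 2 (Fut7), 3 (Cxcl13), 4 (Lyve1, Egfl7, Bst1) and 5 (Gcnt1, Krt7, Mmrn1) of 9 fits with an array or pair left out. With all arrays kept it was lost in 1 (Fut7), 2 (Krt7, Egfl7, Gcnt1, Bst1), 3 (Cxcl13), 5 (Mmrn1) and 6 (Lyve1) of the 9 or 10 alternatives that gave a value. The cause of these changes was not tested. Slide or scan as a block was not run, since all arrays share both. Signal over background limits Lpar1, Lpar2, Lpar3, Lpar4 and the second Plppr3 probe, which were not well above background on every array.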
